A study of Homo sapiens with 27 samples.

Results

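Genes with roles in immune signalling, namely TBC1D10C, LCP2, ICOSLG, EFNB2, ETS1, ARHGAP29 and IRAG1, were followed across every sample of an RNA sequencing study of lncRNA knockdown. They are 7 of the 60619 genes in the count tables, were chosen by their counts with the GapmeRs against lnc-RTN4R-1, which differed from those of the controls, and all 7 were among the 16268 genes that passed the filter on low counts. The question was which of them rose only with those GapmeRs and which also rose with GapmeRs against other lncRNAs.

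The cells were REH, a human leukemia cell line of B-cell precursor type (BCP-ALL) in which the ETV6/RUNX1 fusion is present. GapmeRs with locked nucleic acid (LNA) ends are antisense oligonucleotides that recruit RNase H to cut the RNA they pair with, and they were taken up passively at 10 µM for 72 hours. The 27 samples comprised medium alone (n = 2), a non-targeting GapmeR called NTC (n = 3), lnc-RTN4R-1 GapmeR1 and GapmeR2 (n = 3 each), lnc-NKX2-3-1 GapmeR1 (n = 2) and GapmeR2 (n = 3), lnc-TIMM21-5 GapmeR1 and GapmeR2 (n = 3 each), and lnc-ASTN1-1 GapmeR1 (n = 3) and GapmeR2 (n = 2). Medium and NTC formed the 5 controls. All samples came from this single line, so the values describe REH cells only. Total counts ran from 14627110 to 22750945 per sample. Of 14 B-cell precursor markers, 13 had a mean of at least 1 CPM (counts scaled to the library size), and VPREB1 was at 0 in all samples.

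The genes act at different levels of signalling. ICOSLG is a costimulatory ligand that B cells present to the T cell receptor ICOS, and EFNB2 (ephrin-B2) is a membrane ligand of Eph receptors. LCP2 (SLP-76) is an adaptor that links antigen receptor kinases to their effectors, and TBC1D10C (carabin) inhibits calcineurin and Ras in lymphocytes. ARHGAP29 is a GTPase-activating protein, IRAG1 restrains calcium release through the IP3 receptor when cGMP kinase phosphorylates it, and ETS1 is a transcription factor of lymphocytes.

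The GapmeRs that the results turn on are shown 5′ to 3′, each as deposited in the study's oligonucleotide list, with the longest run of bases that can pair with the transcribed strand of any of the 7 genes in capitals.
lnc-RTN4R-1 GapmeR1: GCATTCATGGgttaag
lnc-RTN4R-1 GapmeR2: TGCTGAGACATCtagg
lnc-NKX2-3-1 GapmeR1: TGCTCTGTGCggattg
lnc-ASTN1-1 GapmeR1: taatcTGCCAGGAGTG
The capitals of lnc-RTN4R-1 GapmeR1 pair with an ETS1 intron over 10 bases, and an overlapping stretch of it, not marked, pairs with an IRAG1 intron over 10 bases as well. Those of GapmeR2 pair with another ETS1 intron over 12 bases. The run of lnc-NKX2-3-1 GapmeR1 covers 10 bases and lies in introns of ARHGAP29 and EFNB2, and that of lnc-ASTN1-1 GapmeR1 covers 11 bases in an ETS1 exon. A run of at least 12 bases with lnc-RTN4R-1 GapmeR2 is found in 1.55% of the 16024 genes searched. lnc-TIMM21-5 GapmeR2 can also pair with an ETS1 intron over 12 bases, as 4.6% of genes can, and with it ETS1 had a log2 value of 0.11 ± 0.06 (edgeR adjusted p = 1). Whether such pairing has a part in any change of the 7 genes was not tested. On hg38 the 2 lnc-RTN4R-1 GapmeRs are complementary to the minus strand of LINC02891, the annotated name of lnc-RTN4R-1, in exonic sequence at chr22:20200478-20200493 and chr22:20198858-20198873.

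The target fell with both of its GapmeRs. It was at 19.2 and 24.4 CPM in medium and at 18.3, 22.6 and 19.8 CPM with NTC, against 6.04, 6.44 and 5.08 CPM with GapmeR1 and 5.04, 5.61 and 3.40 CPM with GapmeR2, so that these groups did not overlap the controls. The log2 fold change was -1.83 ± 0.13 (SE) with GapmeR1 and -2.15 ± 0.14 with GapmeR2 (edgeR adjusted p = 8.32e-10 and 4.17e-11). With lnc-NKX2-3-1 GapmeR1 the target was at 13.8 and 17.7 CPM, a log2 fold change of -0.41 ± 0.14 (edgeR adjusted p = 0.0385). The targets of the other GapmeRs had log2 fold changes from -2.91 to -0.94 and fell with 5 of the 6, the exception being lnc-NKX2-3-1 with its GapmeR2 (-2.59 ± 0.52, edgeR adjusted p = 0.0987), a transcript at 0.326 to 1.26 CPM in the controls.

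**Figure D1:**
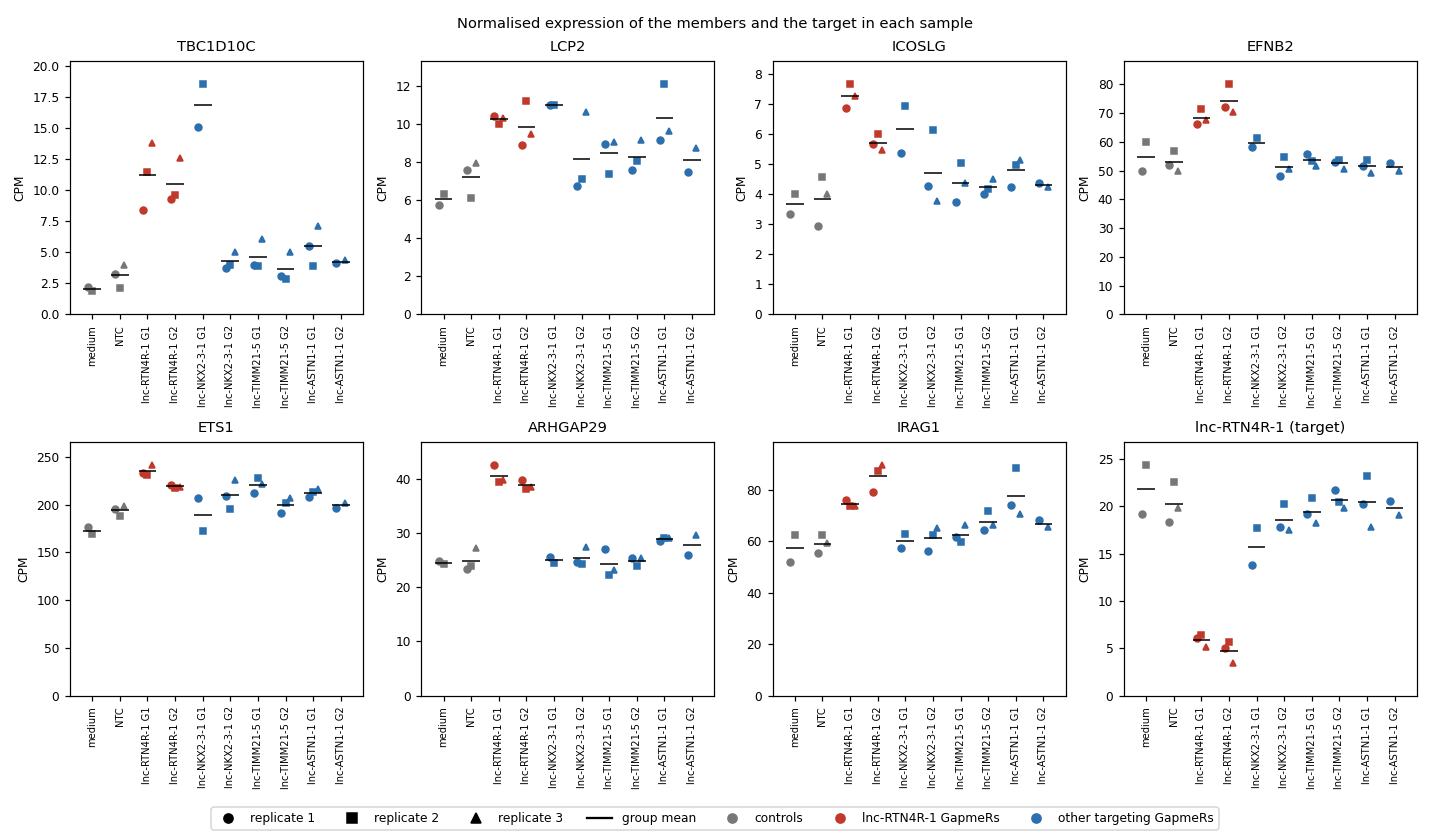
Normalised expression (CPM, y axis from 0) of the 7 genes and of lnc-RTN4R-1 in each of the 27 samples, by treatment group (x axis, G1 and G2 for GapmeR1 and GapmeR2), with symbols for replicate numbers and a line at each group mean. ARHGAP29 and EFNB2 lie above all other samples with both lnc-RTN4R-1 GapmeRs, whereas TBC1D10C is highest with lnc-NKX2-3-1 GapmeR1.

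With the lnc-RTN4R-1 GapmeRs all 7 genes were above the controls. These values chose the genes and are given without a test. For all 7, each of the 6 lnc-RTN4R-1 samples was above the highest of the 5 controls, which held for 0.811% of the genes tested, and all 42 comparisons with the controls of the same replicate number were positive. The threshold behind the choice was an edgeR adjusted p under 0.05 with 1 or both GapmeRs. In either direction 2.19% of genes passed it with GapmeR1 and 9.77% with GapmeR2, and 0.307% passed in the higher direction with both. Nothing is read from the 7 having passed that threshold. Nearest to it was LCP2, at 0.0142 with GapmeR1 and 0.0118 with GapmeR2, printed here only to show where the choice ended, and none of the 7 was outside it.

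ARHGAP29 and EFNB2 separated the lnc-RTN4R-1 samples from the other 21. ARHGAP29 was at 42.7, 39.5 and 39.9 CPM with GapmeR1 and at 39.8, 38.3 and 38.6 CPM with GapmeR2. The 5 controls lay between 23.4 and 27.3 CPM (median 24.3) and the 16 samples of the other targeting GapmeRs between 22.3 and 29.7 CPM (median 25.5), so that the groups did not overlap. The log2 fold change of ARHGAP29 against controls was 0.72 ± 0.07 (SE) with GapmeR1 and 0.65 ± 0.07 with GapmeR2, and against the 6 other targeting GapmeRs 0.61 ± 0.04.

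EFNB2 was at 66.1, 71.5 and 67.4 CPM with GapmeR1 and at 72.1, 80.2 and 70.2 CPM with GapmeR2. The controls lay between 49.8 and 59.9 CPM (median 52.0) and the other targeting GapmeRs between 48.1 and 61.2 CPM (median 52.9), again with no overlap. The log2 fold change was 0.35 ± 0.06 with GapmeR1, 0.47 ± 0.06 with GapmeR2, and 0.42 ± 0.04 against the 6 other targeting GapmeRs. Among all genes tested, 8 (0.0492%) had all 6 lnc-RTN4R-1 samples above the other 21. These 8 lie among the 132 genes with all 6 samples above the 5 controls. ARHGAP29 and EFNB2 were chosen by these 6 samples against the controls, which are part of the 21. The share over all genes therefore does not show how unusual their separation is.

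The other 5 genes did not set the lnc-RTN4R-1 samples above all others. TBC1D10C was at 8.40, 11.5 and 13.8 CPM with lnc-RTN4R-1 GapmeR1 and at 9.33, 9.66 and 12.6 CPM with GapmeR2, against 1.92 to 4.02 CPM (median 2.21) in the controls. It was higher still, at 15.1 and 18.6 CPM, with lnc-NKX2-3-1 GapmeR1, which shared no value with the lnc-RTN4R-1 samples. The log2 fold change was 2.05 ± 0.23 and 1.95 ± 0.23 with the 2 lnc-RTN4R-1 GapmeRs.

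ICOSLG was at 6.88, 7.68 and 7.26 CPM with lnc-RTN4R-1 GapmeR1 and at 5.68, 6.00 and 5.48 CPM with GapmeR2, against 2.94 to 4.59 CPM (median 4.0) in the controls. LCP2 was at 10.4, 10.0 and 10.3 CPM with GapmeR1 and at 8.87, 11.2 and 9.46 CPM with GapmeR2, against 5.76 to 7.92 CPM (median 6.30). For LCP2, 9 of the 16 samples of the other targeting GapmeRs reached the lowest lnc-RTN4R-1 value, and for ICOSLG 2 did.

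ETS1 was at 233, 231 and 242 CPM with GapmeR1 and at 221, 218 and 219 CPM with GapmeR2, against 169 to 199 CPM (median 188) in the controls. IRAG1 was at 76.3, 73.7 and 73.9 CPM with GapmeR1 and at 79.3, 87.3 and 89.9 CPM with GapmeR2, against 52.2 to 62.7 CPM (median 59.4). Of the other targeting GapmeRs, 3 of 16 samples reached the lowest lnc-RTN4R-1 value of ETS1 and 2 of 16 that of IRAG1. Above every control were 12 of these 16 samples for ETS1 and 11 for IRAG1. For IRAG1 they included all samples with lnc-TIMM21-5 GapmeR2 (n = 3) and lnc-ASTN1-1 GapmeR2 (n = 2), as held for 0.916% and 2.96% of all genes.

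The 2 lnc-RTN4R-1 GapmeRs gave log2 fold changes of TBC1D10C, LCP2 and ARHGAP29 that differed (GapmeR1 minus GapmeR2) by 0.10 ± 0.24, 0.06 ± 0.15 and 0.07 ± 0.07. The largest differences were those of ICOSLG, 0.35 ± 0.16, and IRAG1, -0.20 ± 0.08, and for both genes the 3 samples of one GapmeR lay above the 3 of the other. In a bulk sample, a higher level per cell and more cells that express a gene cannot be told apart.

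**Figure D2:**
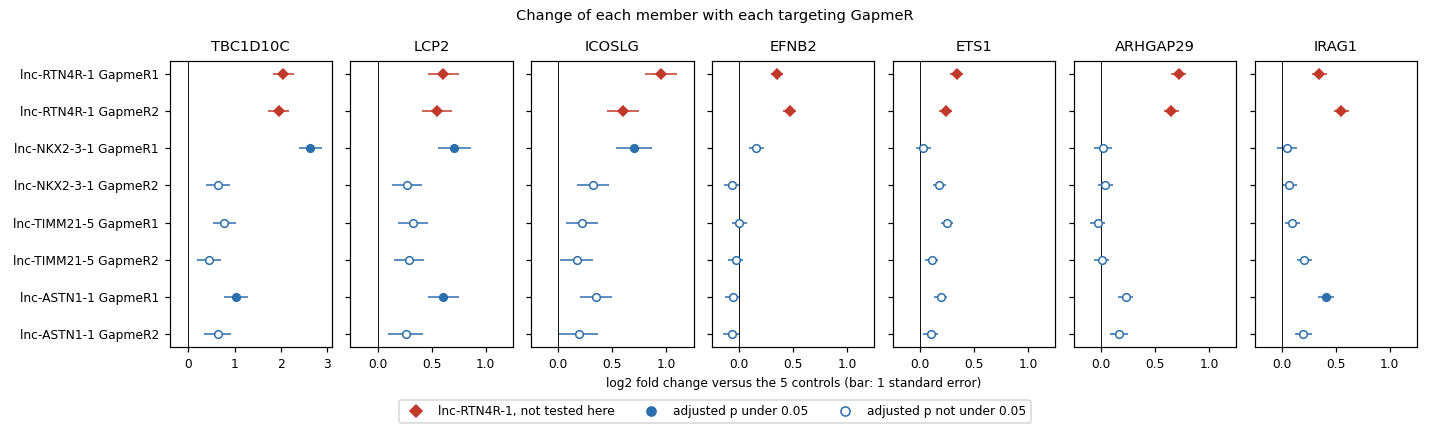
Log2 fold change against the 5 controls (x axis, bar 1 standard error) of each gene with each targeting GapmeR (rows), filled where the adjusted p was under 0.05 and open where it was not. The lnc-RTN4R-1 values (diamonds) chose the genes and were not tested, and the x axis is wider for TBC1D10C than for the other genes.

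The other 6 targeting GapmeRs were not used to choose the genes, and each was tested against the controls in one edgeR fit. The same 5 controls did take part in the choice, so these tests are not independent of it. A gene whose control values happened to be low was favoured by the choice and would also read higher here. The shares over all genes therefore do not show how unusual the counts among the 7 are. With lnc-NKX2-3-1 GapmeR1, 3 of the 7 genes rose, where 19.8% of all genes were past the threshold and 8.06% were higher. TBC1D10C rose by 2.63 ± 0.25 (log2, SE, edgeR adjusted p = 1.43e-08), a larger value than with either lnc-RTN4R-1 GapmeR. LCP2, at 11 CPM in both samples, rose by 0.71 ± 0.15 (edgeR adjusted p = 0.00164), and ICOSLG, at 5.36 and 6.95 CPM, rose by 0.70 ± 0.17 (edgeR adjusted p = 0.0033). Without replicate 2 of that GapmeR, the value of ICOSLG was 0.51 ± 0.21 and edgeR's adjusted p was 0.15.

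ARHGAP29, ETS1 and IRAG1 had values of 0.02 ± 0.08, 0.03 ± 0.07 and 0.05 ± 0.09 with lnc-NKX2-3-1 GapmeR1, with edgeR adjusted p-values of 0.904, 0.839 and 0.781. EFNB2 had a value of 0.16 ± 0.07 (edgeR adjusted p = 0.152), and with the replicate number as a block it rose by 0.14 ± 0.05 (edgeR adjusted p = 0.035), where 35.5% of all genes were past the threshold.

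With lnc-ASTN1-1 GapmeR1, 3 of the 7 genes rose, where 1.19% of all genes were past the threshold and 0.191% were higher. IRAG1, at 74.2, 88.5 and 70.8 CPM, rose by 0.41 ± 0.07 (edgeR adjusted p = 0.00155). Its 3 samples overlapped those of both lnc-RTN4R-1 GapmeRs. TBC1D10C, at 5.51, 3.88 and 7.11 CPM, rose by 1.03 ± 0.25 (edgeR adjusted p = 0.035), and LCP2, at 9.12, 12.1 and 9.64 CPM, rose by 0.61 ± 0.14 (edgeR adjusted p = 0.0229).

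The calls of TBC1D10C and LCP2 with lnc-ASTN1-1 GapmeR1 depended on single libraries. Without medium replicate 1, medium replicate 2 or NTC replicate 2, the edgeR adjusted p was 0.103, 0.104 and 0.0955 for TBC1D10C and 0.0774, 0.0596 and 0.0651 for LCP2. Without replicate 1 or 3 of the GapmeR it was 0.132 and 0.41 for TBC1D10C, and without replicate 2 or 3 it was 0.256 and 0.0569 for LCP2. With the replicate number as a block, 5 genes rose, where 4.36% of all genes were past the threshold. The additional genes were ETS1, 0.19 ± 0.05 (edgeR adjusted p = 0.00997), and ARHGAP29, 0.22 ± 0.06 (edgeR adjusted p = 0.0338). All 3 ARHGAP29 samples, at 28.5, 29.1 and 29.2 CPM, were above the controls, as 2.07% of all genes were, and below the lnc-RTN4R-1 samples.

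None of the 7 genes passed the threshold with lnc-NKX2-3-1 GapmeR2, lnc-TIMM21-5 GapmeR1, lnc-TIMM21-5 GapmeR2 or lnc-ASTN1-1 GapmeR2 in edgeR, where 0.0307%, 0.184%, 0.0676% and 0.0184% of all genes did. At an unadjusted p under 0.05, 3, 3, 2 and 3 of the 7 genes passed, where 5.83%, 5.67%, 3.19% and 2.89% of all genes did. The choice favoured genes with low values in these controls, so these shares do not show how unusual the counts are. With DESeq2, 0, 1, 0 and 0 of the 7 passed, the one being ETS1, among 15, 56, 14 and 8 genes in all. With the replicate number as a block, TBC1D10C and ETS1 rose with lnc-NKX2-3-1 GapmeR2, by 0.59 ± 0.16 and 0.17 ± 0.05 (edgeR adjusted p = 0.0396 and 0.0405), where 2.24% of all genes were past the threshold. They also rose with lnc-TIMM21-5 GapmeR1, by 0.71 ± 0.16 and 0.24 ± 0.05 (edgeR adjusted p = 0.00704 and 0.00136), where 2.43% were.

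Without the block, ETS1 passed the threshold with none of the 6 other targeting GapmeRs in edgeR. It was at 212, 228 and 222 CPM with lnc-TIMM21-5 GapmeR1, all above the controls, as 1.88% of all genes were, and overlapping the lnc-RTN4R-1 samples, and had a log2 value of 0.25 ± 0.06 (edgeR adjusted p = 0.133). All 3 NTC samples of ETS1, at 196, 188 and 199 CPM, were above both medium samples, at 177 and 169 CPM, a separation that 11% of all genes had.

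The 16 samples of the other targeting GapmeRs, pooled with equal weight for each GapmeR, gave 2 of the 7 genes past the threshold against controls, where 1.74% of all genes were. TBC1D10C rose by 1.03 ± 0.19 (edgeR adjusted p = 0.00212) and LCP2 by 0.41 ± 0.10 (edgeR adjusted p = 0.0359). With NTC as the only controls neither was called, with values of 0.81 ± 0.22 and 0.31 ± 0.12 (edgeR adjusted p = 0.103 and 0.468). The block added ICOSLG, ETS1 and IRAG1, with values of 0.34 ± 0.09, 0.14 ± 0.03 and 0.18 ± 0.04 (edgeR adjusted p = 0.011, 0.0054 and 0.00214), where 8.05% of all genes were past the threshold. EFNB2 and ARHGAP29 had values of 0.00 ± 0.03 and 0.06 ± 0.04 there (edgeR adjusted p = 0.992 and 0.463).

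The pooled call of LCP2 was close to the threshold. It was lost without any one of medium replicate 1, medium replicate 2 and NTC replicate 2 (edgeR adjusted p = 0.153, 0.124 and 0.132). It was also lost without replicate 1 or 2 of lnc-NKX2-3-1 GapmeR1 (0.0528 and 0.0544), replicate 1 or 3 of lnc-TIMM21-5 GapmeR1 (0.052 and 0.0508), replicate 3 of lnc-TIMM21-5 GapmeR2 (0.0514) or replicate 3 of lnc-ASTN1-1 GapmeR2 (0.0614), each an edgeR adjusted p.

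Between NTC and medium, none of the 7 genes and 0% of all genes passed the threshold in edgeR or DESeq2, while 1 of the 7 and 575 genes in all (3.53%) had an unadjusted p under 0.05. That gene was ETS1, with a value of 0.16 ± 0.07 (edgeR unadjusted p = 0.0309). The largest value was that of TBC1D10C, 0.62 ± 0.34 (edgeR adjusted p = 0.886), which was higher in both replicate numbers that the groups share. TBC1D10C was also higher in replicate 3 than in the other replicates in all 7 groups that have replicate 3 with both others, by a median of 0.58 (log2).

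The 2 GapmeRs against one lncRNA were compared directly, a comparison added after values had been seen. TBC1D10C was higher with lnc-NKX2-3-1 GapmeR1 than with GapmeR2 by 1.98 ± 0.27 (log2, edgeR adjusted p = 8.47e-06), where 18.0% of all genes differed, and no sample of one group overlapped the other (3.78, 4.01 and 5.07 CPM with GapmeR2). With the block, LCP2, ICOSLG and EFNB2 also differed, by 0.50 ± 0.14, 0.37 ± 0.14 and 0.20 ± 0.06 (edgeR adjusted p = 0.00384, 0.0409 and 0.00672), where 32.8% of all genes did. None of the 7 passed the threshold between the GapmeRs of lnc-TIMM21-5 or of lnc-ASTN1-1 in edgeR or DESeq2, and 1 of the 7 did in each at an unadjusted p under 0.05, where 2.02% and 4.62% of all genes did.

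ICOSLG has an annotated copy that bears on its counts. GENCODE marks ENSG00000277117 (chr21:5022531-5036771) as an artifactual duplication of ICOSLG (ENSG00000160223, chr21:44215382-44241446), and 57.3% of the 50-base words in ICOSLG exons also lie in it. Reads that map to both places are not counted, so ICOSLG can be undercounted. The copy held 12 to 50 counts per sample, against 52 to 161 for ICOSLG. It rose with lnc-NKX2-3-1 GapmeR1 by 1.29 ± 0.29 (edgeR adjusted p = 0.00196).

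**Figure D3:**
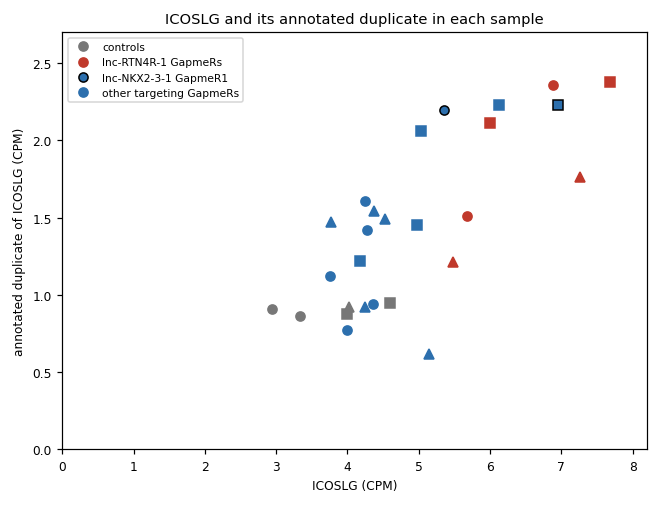
Normalised expression (CPM) of ICOSLG (x axis) and of its annotated duplicate (y axis) in each of the 27 samples, with symbols for replicate numbers 1 (circle), 2 (square) and 3 (triangle). The 5 controls lie between 0.861 and 0.943 CPM of the duplicate and the 6 lnc-RTN4R-1 samples between 1.21 and 2.38 CPM. The 16 samples of the other targeting GapmeRs lie between 0.618 and 2.23 CPM, and 11 of them reach the lowest lnc-RTN4R-1 value.

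Other members overlap annotated genes. TBC1D10C (chr11:67403915-67410089, plus strand) overlaps PPP1CA on the other strand, and IRAG1 (chr11:10573091-10693988, minus strand) overlaps LYVE1 on its own strand and IRAG1-AS1 on the other. LCP2 (chr5:170246233-170297815), EFNB2 (chr13:106489745-106535662), ETS1 (chr11:128458761-128587558) and ARHGAP29 (chr1:94148988-94275068) are on the minus strand, and each overlaps at least 1 annotated gene. The counts used were those of the strand that held 95.15 to 95.41% of both strand columns.

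Genes that work with the 7 were taken from fixed lists, with the 7 left out. Over all genes 2.19% were past the threshold with lnc-RTN4R-1 GapmeR1 and 9.77% with GapmeR2, the background for the counts that follow. In the list of SLP-76 and proximal antigen receptor signalling, 2 of 23 tested genes rose and 1 fell with lnc-RTN4R-1 GapmeR1, and 3 rose and 2 fell with GapmeR2, with medians of 0.04 and 0.16 against 0.00 over all genes. The Src family kinase FYN fell by 1.24 ± 0.13 with GapmeR1 (37.7 ± 5.94 CPM, SD, n = 3, against 89.0 ± 9.05 CPM in the controls, n = 5; edgeR adjusted p = 4.63e-07). It had a value of 0.04 ± 0.12 with GapmeR2 (edgeR adjusted p = 0.886) and fell by 0.86 ± 0.14 with lnc-NKX2-3-1 GapmeR1 (edgeR adjusted p = 7.75e-05). LCK, a kinase of the same family, rose by 1.04 ± 0.19 with lnc-RTN4R-1 GapmeR1 (edgeR adjusted p = 0.00155). Its value with lnc-RTN4R-1 GapmeR2 was 0.43 ± 0.20 (edgeR adjusted p = 0.184). GRAP2, which binds SLP-76, held at most 4 counts in a sample.

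Among 32 tested calcineurin, NFAT and Ras regulators, 3 rose and 1 fell with lnc-RTN4R-1 GapmeR1, and 3 rose and 5 fell with GapmeR2, with medians of 0.05 and 0.00. RCAN1, an inhibitor of calcineurin, fell by 0.51 ± 0.06 with GapmeR2 (edgeR adjusted p = 2.29e-06) and rose by 0.57 ± 0.07 with lnc-NKX2-3-1 GapmeR1 (edgeR adjusted p = 7.12e-07). With lnc-RTN4R-1 GapmeR1 it had a value of -0.15 ± 0.06 (edgeR adjusted p = 0.369). The calcineurin subunit PPP3CB fell by 0.25 ± 0.05 with lnc-RTN4R-1 GapmeR1 (edgeR adjusted p = 0.00515). Its value with lnc-RTN4R-1 GapmeR2 was -0.12 ± 0.05 (edgeR adjusted p = 0.172).

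Of 17 tested costimulatory ligands and receptors, none passed in edgeR with lnc-RTN4R-1 GapmeR1, and 4 rose and none fell with GapmeR2, with medians of 0.17 and 0.37. The ligands CD70 and TNFSF9 rose by 0.71 ± 0.15 and 1.11 ± 0.26 with GapmeR2 (edgeR adjusted p = 0.00216 and 0.00556). ICOS, the receptor of ICOSLG, held at most 13 counts in a sample.

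Of 13 tested ephrins and Eph receptors, none passed in edgeR with GapmeR1, and 4 rose and none fell with GapmeR2, with medians of 0.05 and 0.31. EFNA1 and EFNB1 rose by 0.79 ± 0.17 and 0.55 ± 0.13 with GapmeR2 (edgeR adjusted p = 0.00323 and 0.00699). The median with lnc-NKX2-3-1 GapmeR1 was -0.32, where 3 of the 13 fell, all receptors, and none rose. With that GapmeR 19.8% of all genes were past the threshold in either direction. Among the 3 receptors was EPHB2, which fell by 0.85 ± 0.18 (edgeR adjusted p = 0.00116).

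In the ETS family, 2 of 19 tested genes rose and none fell with lnc-RTN4R-1 GapmeR1, and 4 rose and 3 fell with GapmeR2, with medians of 0.07 and -0.02. ETS2, the closest relative of ETS1, rose with both, by 0.37 ± 0.05 and 0.16 ± 0.05 (edgeR adjusted p = 7.38e-05 and 0.0484), and by 0.38 ± 0.06 with lnc-NKX2-3-1 GapmeR1 (edgeR adjusted p = 3.65e-05). SPIB, a B-cell transcription factor, rose by 0.68 ± 0.12 with lnc-RTN4R-1 GapmeR1 and fell by 0.91 ± 0.14 with GapmeR2 (edgeR adjusted p = 0.00147 and 7.71e-05). It also fell by 0.78 ± 0.16 with lnc-NKX2-3-1 GapmeR1 (edgeR adjusted p = 0.000866).

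SIPA1, an inhibitor of Rap1, rose by 0.30 ± 0.06 with lnc-RTN4R-1 GapmeR2 (edgeR adjusted p = 0.00233). Among 18 tested genes of cGMP kinase and store calcium, 3 rose with GapmeR1, and 2 rose and 1 fell with GapmeR2, with medians of 0.11 and 0.08. The calcium pump ATP2A3 rose by 0.41 ± 0.08 with GapmeR1 and the natriuretic peptide receptor NPR1 by 0.44 ± 0.08 with GapmeR2 (edgeR adjusted p = 0.0055 and 0.000915). ATP2A3 had a value of -0.12 ± 0.09 with GapmeR2 and NPR1 of -0.08 ± 0.09 with GapmeR1 (edgeR adjusted p = 0.468 and 0.903). ITPR3, an IP3 receptor, rose by 0.32 ± 0.08 with lnc-RTN4R-1 GapmeR1 and fell by 0.37 ± 0.10 with lnc-NKX2-3-1 GapmeR1 (edgeR adjusted p = 0.034 and 0.00581). With lnc-RTN4R-1 GapmeR2 it had a value of -0.09 ± 0.08 (edgeR adjusted p = 0.573).

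Of 24 partner genes named whatever their values, 21 were tested, and 2 rose and 1 fell with lnc-RTN4R-1 GapmeR1, and 2 rose and 2 fell with GapmeR2. Besides those above, CD86, a costimulatory ligand at 2 to 22 counts per sample, rose by 1.65 ± 0.42 with GapmeR2 (edgeR adjusted p = 0.0111). The ETS factor FLI1 fell by 0.37 ± 0.08 and the IP3 receptor ITPR2 by 0.40 ± 0.10 with GapmeR2 (edgeR adjusted p = 0.00384 and 0.00735). CD86, FLI1 and ITPR2 had values of 0.91 ± 0.45, 0.05 ± 0.08 and -0.06 ± 0.09 with lnc-RTN4R-1 GapmeR1 (edgeR adjusted p = 0.515, 0.946 and 0.944). With lnc-NKX2-3-1 GapmeR1, ITPR2 fell by 0.41 ± 0.11 and FLI1 had a value of 0.20 ± 0.09 (edgeR adjusted p = 0.00928 and 0.129). PPP3CA, PPP3R1, BLNK, PLCG2, VAV1, ICOS, EPHB2, EPHB4, EPHB6, ERG, RUNX1, RHOA, PTPN13, RAP2A and ITPR1 passed the threshold with neither lnc-RTN4R-1 GapmeR. CD80, GRAP2 and PRKG1 held too few counts to be tested.

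Across the 27 samples, after subtraction of the replicate effect, the genes most like TBC1D10C in log2 CPM were GRAMD4 (Pearson r = 0.934) and PFKL (0.930), and those most like ICOSLG were RGS14 (0.906) and PFKL (0.891). For ARHGAP29 they were ITGA4 (0.930) and MLC1 (0.877), and for EFNB2 ITGA4 (0.877) and ARHGAP29 itself (0.861). LCP2 was most like SLC25A37 (0.846) and PLEKHA2 (0.814), ETS1 most like SH3TC1 (0.881) and KLF13 (0.873), and IRAG1 most like MLC1 (0.840) and SYNGR1 (0.811). Without subtraction of the replicate effect, the values of these pairs ran from 0.66 (ARHGAP29 with ITGA4) to 0.923 (TBC1D10C with GRAMD4). The points share treatments and library preparation, and the correlations are descriptions over 13550 genes. Among the 7, the highest correlation was that of EFNB2 with ARHGAP29 and the lowest that of TBC1D10C with ETS1 (0.43). The 27 samples include those by which the 7 genes were chosen, so positive correlations among the 7 were favoured by the choice.

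Markers of other cell types were read beside these results. Of 10 T cell markers, 2 had a mean of at least 1 CPM, and CD3D and CD3G were at 0. The 8 myeloid markers summed to 86.2 to 133 CPM in the controls and 82.5 to 450 CPM in the lnc-RTN4R-1 samples, almost wholly through MPO, with ELANE and S100A8 at 0. MPO was at 84.8 to 132 CPM in the controls, 79.4 to 117 CPM with lnc-RTN4R-1 GapmeR1, 291 to 445 CPM with GapmeR2 and 162 to 194 CPM with lnc-NKX2-3-1 GapmeR1. CSF1R, another of the myeloid markers, was at 0.34 to 1.04 CPM in the controls and rose to 1.24 to 2.19, 2.03 to 2.59 and 1.45 to 1.79 CPM with these 3 GapmeRs in turn (edgeR adjusted p = 0.028, 0.000491 and 0.0271). With lnc-ASTN1-1 GapmeR1 it was at 1.09 to 1.96 CPM (edgeR adjusted p = 0.228). The part of these markers in the results above was not tested.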

How the data were processed

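Total counts per gene from 27 samples were analysed. The deposited values are raw counts per gene, which the authors made with STAR on hg38, in 3 columns of counts per sample (both strands, and each strand), with no normalisation. The annotation release was not given in the sources used here, and the labels describe ribodepleted stranded RNA whereas the methods describe poly-A selection. Reads in the 4 rows that name no gene, 23.0 to 28.5% of reads, were left out. Column 4 was used. Of 60619 identifiers, 56434 matched GENCODE v44, from which symbols and hg38 coordinates (counted from 1) were taken.

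Counts were fitted in edgeR 4.0.16 (R 4.3.3): 1 quasi-likelihood fit (robust) of all samples with TMM normalisation, filterByExpr (minimum count 10, minimum total count 15), 9 groups with medium and NTC pooled, and 18 residual degrees of freedom. NTC and medium were compared in a 10-group fit. P-values were adjusted by Benjamini-Hochberg over all 16268 genes, with the threshold at 0.05, and standard errors came from F statistics. CPM was computed with TMM-scaled libraries (prior count 2 on the log2 scale). The fit was tested on simulated data. Alternatives were a block for the replicate number, unstranded counts, RLE normalisation, a minimum of 10 counts in every sample, leaving out the low-count filter, each comparison on its own samples, NTC only as controls, GapmeRs of the other lncRNAs as reference, DESeq2 1.42.0, and each replicate left out. The sum of ICOSLG and its duplicate was added after the data were seen.

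The methods put the biological triplicates on different days, which is where the pairing by replicate number comes from, although the labels do not tie a number to a day. Deviations from group means correlated by over 0.1 in 94 of 109 same-number pairs (mean 0.263, against -0.1302 for different numbers), and 26 of 27 samples correlated best with a sample of their own number. Blocked values are given where they change a call. The members, lists and comparisons were chosen with earlier results of these data known. Named genes were the members, the targets, 24 partner genes, at most 2 genes of each list with the smallest adjusted p past the threshold for a lnc-RTN4R-1 GapmeR, and the 2 genes most like each member. Results for 1 listed gene and 1 list are not reported here. GapmeR sequences came from the study's oligonucleotide list.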

Additional observations from a re-analysis of the deposited data

Results flagged for a closer look

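ARHGAP29 in lnc-RTN4R-1 GapmeR1 replicate 1 stood apart from the other 5 lnc-RTN4R-1 samples: its gap to the nearest, divided by the range of the 6, was 0.631. Of 18 gene and group combinations examined in this way it was the 1 that passed, and chance passes about 1 in 20. TBC1D10C differed between the 2 GapmeRs against lnc-NKX2-3-1, with a log2 difference (GapmeR1 minus GapmeR2) of 1.98 by a direct edgeR test (adjusted p = 8.47e-06, range over 13 alternatives 3.6e-26 to 0.000558), and both GapmeR1 samples were above all 3 GapmeR2 samples.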

How the results depend on the processing

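The replicate block raised the number of the 7 genes past the threshold to 2 for lnc-NKX2-3-1 GapmeR2, 2 for lnc-TIMM21-5 GapmeR1, 5 for lnc-ASTN1-1 GapmeR1 and 5 for the pooled other GapmeRs, among 364, 396, 710 and 1310 genes in all. For lnc-TIMM21-5 GapmeR1 no low-count filter gave 1 among 135 genes and DESeq2 gave 1 among 56. For lnc-ASTN1-1 GapmeR1 a fit on its own samples gave 0 among 108, NTC only as controls gave 1 among 140 and the other lncRNAs' GapmeRs as reference gave 1 among 468. For the pooled other GapmeRs the own-sample fit gave 1 among 248 and NTC only as controls gave 0 among 118. Leaving out 1 replicate gave 1 to 3 genes for lnc-ASTN1-1 GapmeR1 and 1 to 2 for the pooled other GapmeRs. TBC1D10C with lnc-ASTN1-1 GapmeR1 reversed to -0.09 with the other lncRNAs' GapmeRs as reference, which include lnc-NKX2-3-1 GapmeR1, where TBC1D10C is highest. LCP2 with lnc-NKX2-3-1 GapmeR1 had a value of 0.33 ± 0.14 against that reference (edgeR adjusted p = 0.089), and IRAG1 with lnc-ASTN1-1 GapmeR1 an adjusted p of 0.0502 in the edgeR fit on its own samples. Over single genes past the threshold, 147 alternative values kept the call, 30 lost it and 1 reversed. All 238 alternative values of the 7 genes with the lnc-RTN4R-1 GapmeRs moved by less than 1 SD of the controls. The cause of these changes was not tested. TBC1D10C, LCP2 and ICOSLG rest on as few as 34, 97 and 52 counts in a control sample, which limits their precision.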
